A study of Mus musculus with 9 samples.

Results

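Endothelial identity genes and VEGF receptors were examined as a set of 10 genes of the 54532 listed for every library. The members were taken by gene name: Flt1 and Kdr (VEGF receptors), Tek and Tie1 (Tie receptors), Eng (endoglin), Erg and Sox17 (transcription factors), Pecam1 and Emcn (surface proteins), and Vwf (von Willebrand factor). Of these 10, Flt1 and Eng reached 1 FPKM (sequenced fragments scaled by the length of the gene and the size of the library) in at least 3 libraries, Kdr, Tek, Tie1, Pecam1, and Vwf stayed near 0, at 0.242 FPKM or less in every library, and Erg, Sox17, and Emcn had 0 fragments in all 9 libraries.

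The libraries were made from B.END3, which the labels describe as brain microvessel endothelial cells of the mouse strain C57BL/6, although the culture notes of the same labels call the line rat. Cells of the Ctrl group were labelled untreated, and whether they received photosensitizer or light alone was not given in the sources used here. Monolayers of Ep1 and Ep2 were incubated for 90 min with 300 μg/mL porfimer sodium, a porphyrin photosensitizer, in the medium. They then received 635 nm laser light at 100 mW/cm2, to a dose of 10 J/cm2 in Ep1 and 20 J/cm2 in Ep2. All 3 groups were cultures of 1 cell line, with 3 libraries each, and nothing in the labels says that the libraries of a group came from separate cultures, so the p-values measure the spread between these libraries.

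Endothelial cells receive VEGF through receptor tyrosine kinases. Kdr (VEGFR2) carries most of the growth and permeability signal, whereas Flt1 (VEGFR1) binds VEGF-A, VEGF-B, and placental growth factor tightly but signals weakly, and a soluble product of the same gene traps the ligand. Angiopoietins act through Tek (Tie2) with Tie1 as its partner and maintain vessel stability, endoglin is an accessory receptor of the TGF-β family, Erg and Sox17 drive endothelial and arterial gene expression, and Pecam1, endomucin, and von Willebrand factor are classical markers of the vessel lining.

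The promoters of Flt1, Kdr, and Eng are shown because Flt1 and Eng were the detected members and Kdr, the receptor nearest to Flt1 in function, was nearly absent. The sequences are RefSeq entries of GRCm38.p6, the 250 bases upstream of the annotated start, and 7 of the 10 members had an entry. Capitals mark GGAAG on either strand (written CTTCC on the other), the core bound by ETS factors such as ERG, and also TGACGTCA, the cyclic AMP response element, and TATAAA, the TATA box, neither of which overlaps a GGAAG in these windows. The window of Flt1 is chr5:147726012-147726261 on the minus strand, that of Kdr chr5:75978456-75978705 on the minus strand, and that of Eng chr2:32646345-32646594 on the plus strand.
Flt1: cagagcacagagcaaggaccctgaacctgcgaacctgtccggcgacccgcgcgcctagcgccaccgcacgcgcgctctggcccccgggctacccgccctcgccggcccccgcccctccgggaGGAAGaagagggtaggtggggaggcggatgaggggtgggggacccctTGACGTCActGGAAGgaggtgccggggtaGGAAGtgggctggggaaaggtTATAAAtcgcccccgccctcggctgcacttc
Kdr: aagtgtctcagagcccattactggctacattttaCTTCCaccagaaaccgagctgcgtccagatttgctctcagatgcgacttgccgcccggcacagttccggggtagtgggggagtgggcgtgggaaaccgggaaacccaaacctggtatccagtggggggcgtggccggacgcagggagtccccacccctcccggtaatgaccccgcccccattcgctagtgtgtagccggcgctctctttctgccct
Eng: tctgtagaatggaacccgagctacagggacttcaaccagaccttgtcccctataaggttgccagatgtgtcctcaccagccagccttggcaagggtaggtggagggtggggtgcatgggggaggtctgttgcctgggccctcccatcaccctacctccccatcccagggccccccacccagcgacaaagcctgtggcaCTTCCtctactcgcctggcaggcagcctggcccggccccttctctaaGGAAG

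The Flt1 window held 3 matches to GGAAG, 1 to TGACGTCA, and 1 to TATAAA, with 23 CpG dinucleotides. The Kdr window held 1 GGAAG and 16 CpG, and the Eng window held 2 GGAAG and 4 CpG. Of the other members with an entry, all near or at 0 FPKM, Tie1 had 6 GGAAG, Emcn 2, Tek 0, and Erg 0 or 1 by entry. Among 32851 mouse promoter windows of the same length, GGAAG occurred in 64.1%, at least 3 copies of it in 10.7%, TGACGTCA in 1.55%, and TATAAA in 12.4%, and the median window had 6 CpG. These matches describe the letters of the windows only, and a window without a match says nothing about the factor.

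The labelled cell type was checked against endothelial markers before any comparison. Of 34 endothelial markers, namely the 10 members and 24 other surface or signalling genes, 10 reached the filter of 1 FPKM in at least 3 libraries, and 5 had no fragment in any library. Cdh5 (VE-cadherin, the adherens junction protein of endothelium) lay between 0.524 and 1.09 FPKM. Cldn5 (the main claudin of brain endothelial tight junctions) had 2 fragments in 1 Ctrl library and 0 in the other 8 libraries. Robo4 and Clec14a, both endothelial surface proteins, were at 0 throughout. In all, 24 of the 34 were below the filter, a rule over the 9 libraries together that 47.1% of protein-coding genes passed. Calcrl and Plvap, among the 10 that reached it, did so only through Ep2. These low levels go against the labelled cell type, and their cause was not tested. Other markers of the list were well detected, with Ly6c1, a surface antigen, between 50.6 and 80.8 FPKM and Ecscr, an endothelial signalling protein, between 17.3 and 20.6 FPKM.

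Markers of other cell types were measured in the same libraries. Of 16 epithelial markers 6 passed the filter, and their summed level ran from 1032 to 1084 FPKM in Ctrl, 940 to 1044 in Ep1, and 1159 to 1376 in Ep2, most of it from the simple keratins Krt8 (562 to 714 FPKM), Krt18 (231 to 332), and Krt19 (135 to 324). Within that list Cdh1 (E-cadherin) was near 0, at a mean of 0.0434 FPKM, and Krt7, Krt5, and Esrp1 were at 0. Of 10 fibroblast markers 3 passed, namely Col3a1 (30.8 to 41.2 FPKM), Twist1 (24.5 to 29.1), and Col1a1 (5.92 to 7.64), with summed levels of 69.6 to 72.6 FPKM in Ctrl, 62.5 to 67.9 in Ep1, and 70.8 to 74.7 in Ep2, while Thy1 was at 0. Haematopoietic markers summed to 33.5 to 36.8 FPKM in Ctrl, 30.1 to 35.1 in Ep1, and 87.5 to 102 in Ep2. Of these 10 markers 2 passed, Cd68 and Cd14, and Itgam was at 0. Limma called 1 of the 2 higher in Ep2 against Ctrl and did not call the other. As 7 of the 10 had at most 10 fragments in every library, the sum does not stand for the list as a whole. Des was the 1 mural marker of 10 that passed, and Tubb3 the 1 neural marker of 10. The summed epithelial and haematopoietic levels were highest in Ep2, as the Flt1 level below was, and their part in the members' values was not tested.

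**Figure D1:**
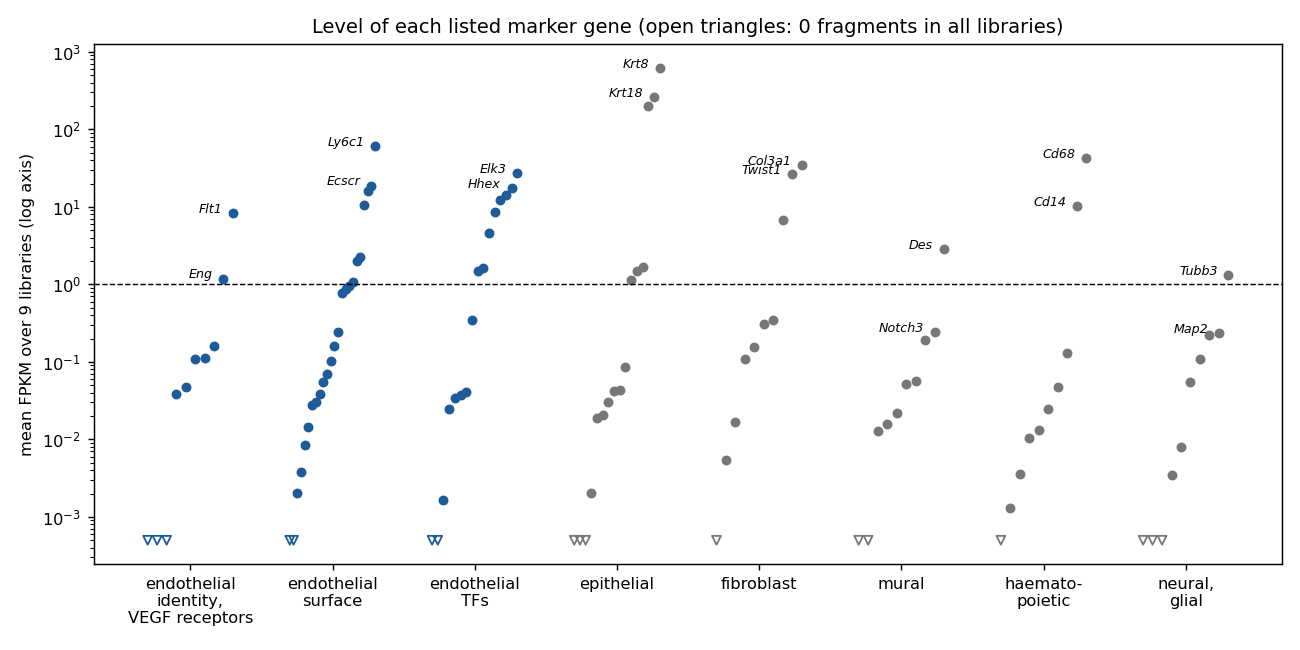
Mean FPKM over the 9 libraries (log axis) of every gene in 3 endothelial lists (blue) and 5 lists of other cell types (grey), 1 point a gene, with open triangles at the bottom for genes at 0 fragments in all libraries and a dashed line at 1 FPKM. Flt1 and Eng are the only members above the line, whereas Krt8 and Krt18 stand above every endothelial marker.

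Each level was read against its depth. The libraries held 16240688 to 19509225 fragments on genes, recovered from the FPKM values. A count of 0 allows up to 3 fragments as an upper 95% limit alone. Over all 9 libraries this corresponds to 0.00523 FPKM for Erg, 0.0038 FPKM for Sox17, and 0.00335 FPKM for Emcn, and in a single library to at most 0.0521, 0.0379, and 0.0334 FPKM. The exact 95% Poisson intervals used below have a limit on each side, and for these genes they end at 0.00643, 0.00467, and 0.00412 FPKM. These limits and the intervals below cover counting error only.

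In order of mean level over the 9 libraries, Flt1 had 8.34 FPKM, Eng 1.19, Pecam1 0.158, Vwf 0.112, Tie1 0.108, Tek 0.0471, and Kdr 0.0391, followed by the members at 0. The ranges of Flt1 and Eng did not overlap, nor did those of Eng and Pecam1. From Pecam1 down to Kdr the range of each gene overlapped that of its neighbour in the order, whereas Pecam1 lay above Kdr in full. Flt1 alone made up 77.9% to 86.9% of the summed FPKM of the 10 members in each library. Among the 11727 tested genes the Ctrl mean of Flt1 stood at percentile 46.3 and that of Eng at percentile 8.72.

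**Figure D2:**
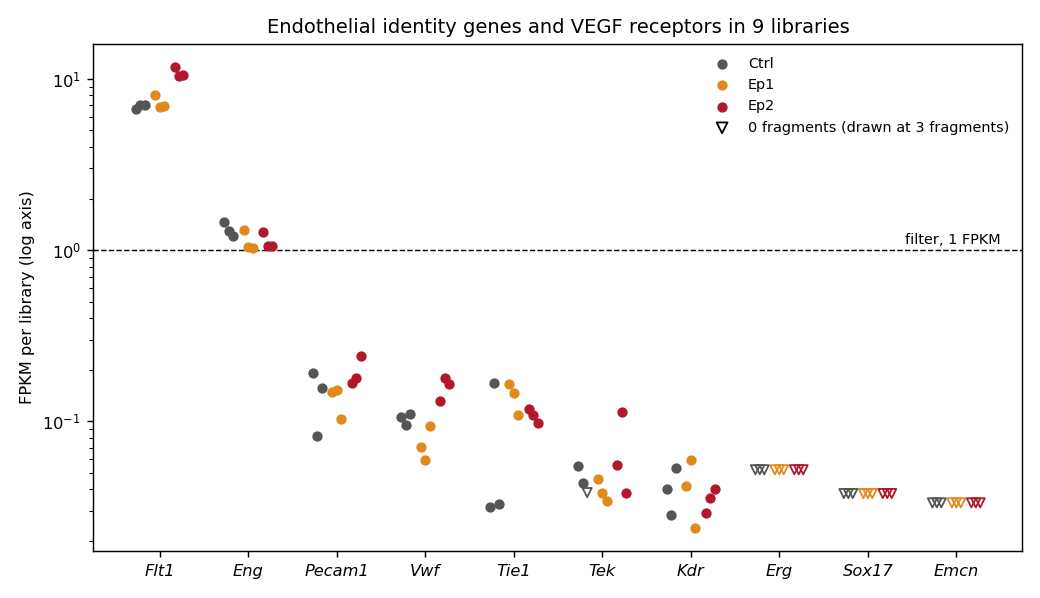
FPKM (log axis) of the 10 members in each library, with Ctrl in grey, Ep1 in orange, and Ep2 in red. Open triangles are libraries with 0 fragments, drawn at the level of 3 fragments, and the dashed line is the filter of 1 FPKM. The 3 Ep2 points of Flt1, from 10.4 to 11.7, lie above all its other points.

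The comparisons of Ctrl with each light dose asked whether PDT altered these genes. The 2 members that passed the filter were tested together with all other tested genes (limma on log2(FPKM + 1), Benjamini-Hochberg adjustment, called at an adjusted p below 0.05). Neither was called in Ep1 against Ctrl by limma, nor at an unadjusted p below 0.05, and voom on the recovered fragments called 0 of 5 members (1, Tie1, at an unadjusted p below 0.05). In that comparison 11.3% of all tested genes were called, 6.32% higher and 4.97% lower, and 13.8% by voom, 6.5% higher. Flt1 rose in Ep2 against Ctrl, where 53.2% of all tested genes were called, 23.9% higher and 29.3% lower, and in Ep2 against Ep1, where 44% were called, 18.8% higher and 25.2% lower. With more than 1 gene in 2 called at the higher dose, 1 of 2 members is near the background.

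Flt1 (ENSMUSG00000029648, chr5:147561604-147726011 on the minus strand of GRCm38), the decoy-like VEGF receptor, was the VEGF receptor detected above the filter. Its levels were 6.66, 7.04, and 6.99 FPKM in Ctrl, 8.0, 6.81, and 6.93 FPKM in Ep1, and 11.7, 10.4, and 10.6 FPKM in Ep2. The Ep1 libraries overlapped the Ctrl libraries, with Ep1 replicate 1 the highest of the 6, and all Ep2 libraries were above all others. The libraries of 59.7% of tested genes also separated between Ep2 and Ctrl, and those of 54.4% between Ep2 and Ep1. The mean rose from 6.90 ± 0.206 FPKM in Ctrl to 10.9 ± 0.732 FPKM in Ep2 (SD, n = 3), a 1.58-fold difference, while Ep1 had 7.25 ± 0.655 FPKM.

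In the limma fit the log2 fold change of Flt1 was 0.59 (SE 0.0676, adjusted p = 9.67e-05) in Ep2 against Ctrl and 0.53 (SE 0.0676, adjusted p = 0.000277) in Ep2 against Ep1. In Ep1 against Ctrl it was 0.060 (SE 0.0676, adjusted p = 0.591). On the scale of log2(FPKM + 1), where the pseudocount of 1 shrinks changes, the Ep2 change fell just below 0.6, which 9.17% of tested genes passed in this fit. The study set its DEG threshold of 0.6 on a log2 fold change and named no pseudocount. The recovered fragments placed Flt1 above it, at 0.68 in a voom fit (adjusted p = 1.01e-06), as did a pseudocount of 0.1 (0.65) and median centring (0.64). A correction for gene length and GC content gave 0.54, and fits with 1 library left out 0.54 to 0.62. The counts behind it were 1543 to 3017 fragments per library. Reads of the full-length and the soluble Flt1 product cannot be told apart in a value per gene, and in bulk libraries neither can a change in the share of expressing cells and a change in RNA per cell.

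Kdr (ENSMUSG00000062960, chr5:75932827-75978458, minus strand), the main signalling receptor for VEGF, was near 0. It had 7, 5, and 9 fragments in Ctrl, 7, 9, and 4 in Ep1, and 5, 6, and 6 in Ep2, between 0.0239 and 0.0594 FPKM, and the groups overlapped. All 58 fragments together gave 0.0388 FPKM (95% exact Poisson interval 0.0295 to 0.0501). Flt1 exceeded Kdr by 115-fold to 403-fold in FPKM within a library, with a median of 249-fold. Kdr was too low for the filtered fits, and in the limma fit without a filter its adjusted p was 1 in Ep1 and 0.83 in Ep2 against Ctrl. The third VEGF receptor, Flt4, a receptor of lymphatic endothelium, had at most 2 fragments in any library.

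Among the ligands of these receptors 4 of 5 were tested. In Ep1 against Ctrl none was called by limma, also at an unadjusted p below 0.05, or by voom, and in Ep2 against Ctrl Vegfa and Vegfd rose and Vegfb fell. Limma called 11.3% of all tested genes in Ep1 and 53.2% in Ep2 against Ctrl. Vegfa, the ligand shared by Flt1 and Kdr, had 46.2, 47.6, and 46.1 FPKM in Ctrl, 54.2, 42.3, and 42.5 FPKM in Ep1, and 96.4, 59.9, and 63.2 FPKM in Ep2. All Ep2 libraries were above the Ctrl libraries, a separation that 59.7% of tested genes showed in either direction, and Ep2 replicate 1 stood far above the other Ep2 libraries. Its log2 fold change in Ep2 was 0.61 (SE 0.175, adjusted p = 0.0196), and the call was lost without Ctrl replicate 1 (adjusted p = 0.0523). Without Ep2 replicate 1 the value was 0.39 (adjusted p = 0.0105).

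Vegfd, a ligand of Flt4 and in humans of KDR, rose by 0.31 in log2 units at the Ep2 dose (SE 0.0645, adjusted p = 0.00289). In Ep2 Vegfb, a ligand of Flt1 but not of Kdr, fell by 0.30 in log2 units (SE 0.0868, adjusted p = 0.0151), but this call was lost without Ctrl replicate 1 or replicate 2 (adjusted p = 0.0591 and 0.0603) and after a correction for gene length and GC content (adjusted p = 0.328). Vegfc was tested and not called, and Pgf (placental growth factor) was below the filter at 0.166 to 0.614 FPKM. The co-receptors Nrp1 and Nrp2, which hold VEGF-A for its receptors, were not called in either dose against Ctrl, with Nrp2 at 5.39 to 6.88 FPKM and Nrp1 at 0.531 to 1.23 FPKM. The detected VEGF system was therefore made of ligands, neuropilins, and Flt1, and it held almost no Kdr or Flt4 RNA.

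The Tie receptors were near 0. Tek (ENSMUSG00000006386, chr4:94739289-94874976, plus strand) had 5, 4, and 0 fragments in Ctrl, 4, 3, and 3 in Ep1, and 5, 10, and 3 in Ep2, with 37 in all and 0.0474 FPKM (95% exact Poisson interval 0.0334 to 0.0654). Tie1 (ENSMUSG00000033191, chr4:118471191-118490061, minus strand) had 3, 16, and 3 fragments in Ctrl, 15, 12, and 10 in Ep1, and 11, 10, and 8 in Ep2. The groups of both genes overlapped, and Ctrl replicate 2 of Tie1 exceeded the other Ctrl libraries by more than any treated library did those of its group. Tie1 was not called in the voom fit (log2 fold change 1.17 with adjusted p = 0.147 in Ep1 and 0.87 with adjusted p = 0.189 in Ep2).

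Of the angiopoietins that act on Tek, Angpt2 was well detected. It had 9.19, 9.93, and 10.7 FPKM in Ctrl, 10.5, 8.95, and 9.34 FPKM in Ep1, and 14.7, 15.7, and 15.6 FPKM in Ep2, so that only the Ep2 libraries stood apart. Such a separation of Ep2 held for 59.7% of tested genes against Ctrl and 54.4% against Ep1. Angpt2, the context-dependent antagonist of Tek, rose by 0.58 in log2 units in Ep2 against Ctrl (SE 0.069, adjusted p = 0.000119) and by 0.62 against Ep1 (adjusted p = 0.000124). Angpt1, the agonist, lay between 0.343 and 0.928 FPKM, and Ptprb (the endothelial phosphatase VE-PTP, which dephosphorylates Tek) between 0.00808 and 0.0948 FPKM, both below the filter. Ligand RNA was thus present where receptor RNA was close to the counting limit.

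**Figure D3:**
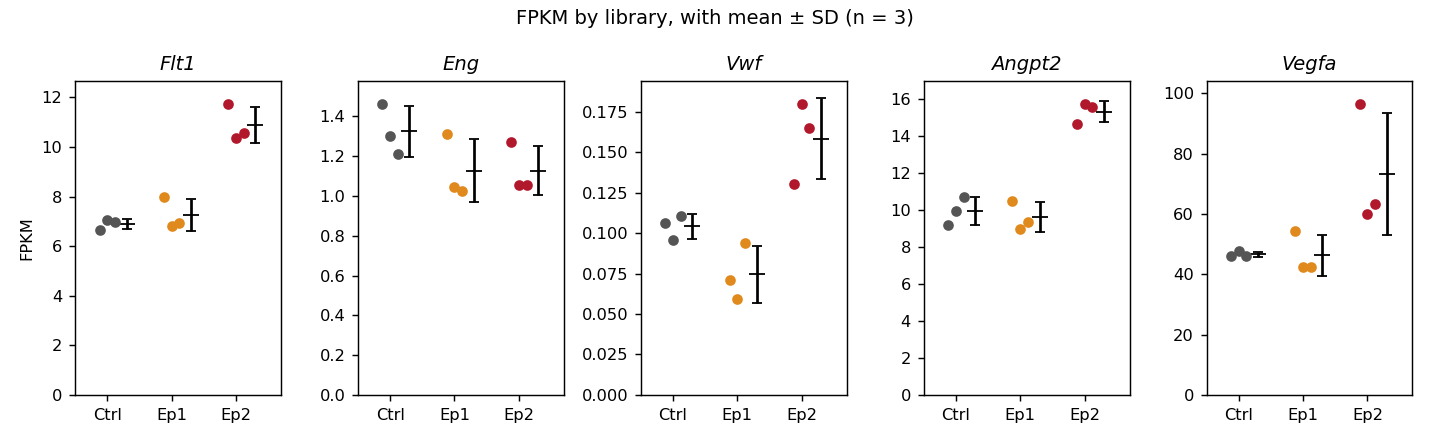
FPKM per library (points, linear axes from 0) with mean ± SD (n = 3) of the members Flt1, Eng, and Vwf and of the ligands Angpt2 and Vegfa in Ctrl, Ep1, and Ep2. The Ep2 libraries of Flt1, Vwf, Angpt2, and Vegfa lie above all Ctrl libraries, and 59.7% of tested genes also separated these 2 groups in either direction. The groups of Eng overlap. The Vwf axis ends below 0.2 FPKM, and Vwf was below the filter that the tested genes passed.

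Endoglin, the accessory TGF-β receptor, was detected just above the filter. Eng (ENSMUSG00000026814, chr2:32646595-32682669, plus strand) had 1.46, 1.3, and 1.21 FPKM in Ctrl, 1.31, 1.05, and 1.02 FPKM in Ep1, and 1.27, 1.06, and 1.06 FPKM in Ep2, from 71 to 114 fragments per library. The groups overlapped. The log2 fold change was -0.13 (SE 0.0926) in both doses, with an adjusted p of 0.39 in Ep1 and 0.274 in Ep2, and it was 0.0013 (adjusted p = 0.993) between the doses. The gene overlaps Fpgs, which lies on the opposite strand and had up to 1052 fragments in a library, and because the sources used here do not state strand-specific counting, reads from the shared stretch cannot be told apart.

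Of 14 genes of the endoglin pathway 11 were tested. In Ep1 against Ctrl 2 rose, 3 fell, and 6 were not called, where 11.3% of all tested genes were called. In Ep2 against Ctrl 4 rose, 4 fell, and 3 were not called, where 53.2% of all tested genes were called. The median log2 fold change in Ep2 was 0.074 beside -0.029 over all tested genes. The receptors Tgfbr2 (0.51, adjusted p = 6.71e-05) and Tgfbr3 (0.44, adjusted p = 9.28e-05) rose in Ep2, as did Tgfbr1 and Bmpr2. The members that fell were the inhibitory Smads Smad6 and Smad7 and the target genes Id1 and Id3. Id1 had 153, 149, and 143 FPKM in Ctrl, 99.4, 105, and 102 FPKM in Ep1, and 122, 117, and 94.4 FPKM in Ep2, below Ctrl in every treated library. Full separation from Ctrl held for 41.3% of tested genes in Ep1 and 59.7% in Ep2, in either direction.

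Id1 fell by 0.53 in log2 units in Ep1 (adjusted p = 0.00906) and by 0.42 in Ep2 (adjusted p = 0.00205). Id3, at 93.3 to 130 FPKM over all libraries, fell by 0.35 in Ep1 (adjusted p = 0.0142) and by 0.24 in Ep2 (adjusted p = 0.0123). The Ep1 call of Id3 was lost when any of Ctrl replicate 1, Ctrl replicate 2, Ep1 replicate 1, or Ep1 replicate 3 was left out (adjusted p up to 0.059) and without a filter (0.0508), and its Ep2 call was lost with the length and GC correction (adjusted p = 0.275). Smad6 fell by 0.30 in Ep1 (adjusted p = 0.0121), which was lost without Ctrl replicate 2 (adjusted p = 0.0544) or Ep1 replicate 3 (0.0533) and with the length and GC correction (0.0945), and by 0.46 in Ep2 (adjusted p = 8.81e-05). Smad5, a signal transducer of the pathway at 11.2 to 13.0 FPKM, was not called. Acvrl1 (ALK1), the endothelial receptor that endoglin serves, was below the filter with 5 to 16 fragments, and its ligand gene Bmp10 was at 0.

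Neither transcription factor of the set was detected. Erg (ENSMUSG00000040732, chr16:95359169-95586593, minus strand) and Sox17 (ENSMUSG00000025902, chr1:4490931-4497354, minus strand) had 0 fragments in each of the 9 libraries. Among 16 endothelial transcription factors 8 were tested, and Fli1, Sox7, Sox18, and Lmo2 lay below 0.05 FPKM on average while Tal1 and Prox1 were at 0.

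Of the tested factors limma called none in Ep1 (2 at an unadjusted p below 0.05) and voom 1 of 9 (Mef2c, adjusted p = 0.0436), and in Ep2 Ets1 and Hhex rose, with 6 not called. Against Ctrl, limma called 11.3% of all tested genes in Ep1 and 53.2% in Ep2, and voom 13.8% in Ep1. Ets1, an ETS factor expressed far beyond endothelium, had 12.7, 12, and 13.1 FPKM in Ctrl, 14.8, 13.5, and 14.0 FPKM in Ep1, and 15.8, 15.6, and 15.6 FPKM in Ep2. Its log2 fold change in Ep2 was 0.29 (SE 0.0476, adjusted p = 0.000709). Hhex, a homeobox factor of blood and endothelial progenitors, had 14.9 to 16.4 FPKM in Ctrl and 18.7 to 20.9 FPKM in Ep2 (log2 fold change 0.29, adjusted p = 0.00208). Elk3, an ETS factor at 25.4 to 29.8 FPKM, was the highest of the list and was not called.

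Pecam1 (CD31, ENSMUSG00000020717, chr11:106654217-106750628, minus strand), the adhesion protein of endothelial junctions, was near 0. It had 23, 10, and 18 fragments in Ctrl, 17, 16, and 12 in Ep1, and 20, 21, and 25 in Ep2, between 0.0821 and 0.242 FPKM. Ctrl overlapped both treated groups, and the Ep2 libraries lay above all Ep1 libraries (voom log2 fold change 0.56, adjusted p = 0.218). Ep2 and Ep1 separated in this way in 54.4% of tested genes, in either direction. Those genes passed the FPKM filter, which Pecam1 did not, so the share does not cover genes as low as Pecam1. Against Ctrl the voom fit gave a log2 fold change of 0.53 in Ep2 (adjusted p = 0.224) and -0.03 in Ep1 (adjusted p = 0.963). Emcn (endomucin, ENSMUSG00000054690, chr3:137341067-137432185, plus strand), a mucin-like surface protein of veins and capillaries, had 0 fragments in all libraries.

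Of 24 further endothelial surface and signalling genes 8 were tested, 16 were below the filter, and 10 had at most 10 fragments in every library. In Ep1 against Ctrl Sele rose and 7 were not called, and in Ep2 against Ctrl 3 rose, 2 fell, and 3 were not called. The shares of all tested genes called were 11.3% in Ep1 and 53.2% in Ep2. Sele (E-selectin, the leukocyte adhesion receptor that cytokines induce) had 6.57, 7.16, and 7.49 FPKM in Ctrl, 11.7, 9.64, and 10.6 FPKM in Ep1, and 14.4, 14.1, and 12.4 FPKM in Ep2, without overlap between any pair of groups, a separation that 41.3% of tested genes showed between Ep1 and Ctrl, 59.7% between Ep2 and Ctrl, and 54.4% between Ep2 and Ep1. Its log2 fold change was 0.52 in Ep1 (SE 0.0792, adjusted p = 0.00873) and 0.86 in Ep2 (SE 0.0792, adjusted p = 2.97e-05).

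In Ep2 Podxl (podocalyxin, a sialomucin of the apical membrane) fell by 0.66 in log2 units (SE 0.0961, adjusted p = 0.000384), from 18.6 to 19.1 FPKM in Ctrl to 9.55 to 12.8 FPKM in Ep2. Without Ep2 replicate 1 its log2 fold change in the limma fit was -0.53 (adjusted p = 5.66e-05). Calcrl, the receptor subunit for adrenomedullin, rose by 0.36 in Ep2 (adjusted p = 0.0104), from 0.722 to 0.794 FPKM in Ctrl to 1.14 to 1.32 FPKM in Ep2. It passed the filter only through Ep2, the group where it was high, as did Plvap, the third gene that rose, so both calls are given as a description only. For Calcrl the correction for length and GC content ended that call (adjusted p = 0.0629). Selp (P-selectin, which is stored with von Willebrand factor) fell by 0.26 in Ep2 (adjusted p = 0.0393), a call that was lost without Ctrl replicate 1 or 2 or Ep2 replicate 2 or 3 (adjusted p = 0.131, 0.0945, 0.0667, and 0.127), and also with median centring (0.0803), no filter (0.0924), only the groups compared (0.0655), or the length and GC correction (0.0825). Ly6c1 and Ecscr were not called in either dose.

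**Figure D4:**
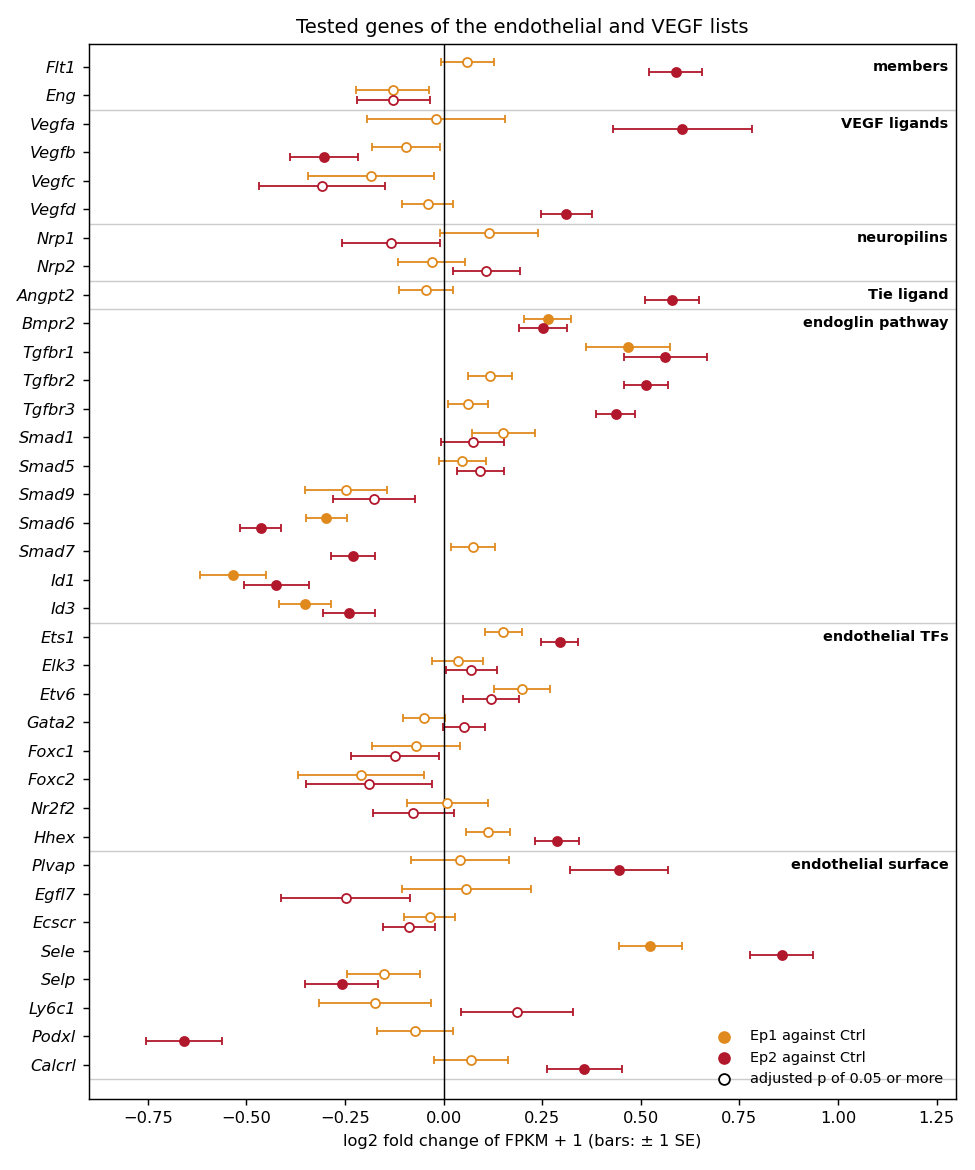
Log2 fold change of FPKM + 1 against Ctrl (points, bars ± 1 SE from limma) in Ep1 (orange) and Ep2 (red) for the tested members and the tested genes of 6 related lists, with open points at an adjusted p of 0.05 or more. Flt1 moved at 20 J/cm2 and not detectably at 10 J/cm2, Eng was called at neither dose, and Sele and Podxl mark the highest and lowest Ep2 values.

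Von Willebrand factor, the multimeric glycoprotein that endothelial cells store for haemostasis, was low. Its fragment counts did not overlap between the 3 groups, though Ep1 and Ctrl lay close together. Vwf (ENSMUSG00000001930, chr6:125546774-125686679, plus strand) had 33, 30, and 33 fragments in Ctrl, 21, 16, and 28 in Ep1, and 40, 54, and 44 in Ep2. In FPKM these were 0.0955 to 0.111 in Ctrl, 0.0594 to 0.0939 in Ep1, and 0.131 to 0.180 in Ep2, with no overlap between any pair of groups. Among tested genes 41.3% (Ep1 and Ctrl), 59.7% (Ep2 and Ctrl), and 54.4% (Ep2 and Ep1) separated in this way. Those genes passed the FPKM filter, which Vwf did not, so the shares do not cover genes as low as Vwf. The highest group mean, in Ep2, was still 0.158 FPKM.

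Vwf did not reach the FPKM filter, so it was tested only in the fits without that filter. The voom fit of 14112 genes called 2 of the 5 members it tested in Ep2 against Ctrl, Flt1 and Vwf, where it called 49.9% of all genes, 25.1% higher, and the same 2 in Ep2 against Ep1, where it called 41.5%, 21.9% higher. The log2 fold change of Vwf was 1.10 in Ep2 against Ep1 (SE 0.259, adjusted p = 0.00312), called in all 6 fits that left out 1 library of those groups (adjusted p = 0.00133 to 0.0197). In Ep2 against Ctrl it was 0.61 (SE 0.232, adjusted p = 0.0415), and the call was lost in 5 of 6 such fits, without Ctrl replicates 1, 2, and 3 (adjusted p = 0.0813, 0.122, and 0.0601) and without Ep2 replicates 2 and 3 (0.132 and 0.0897). In Ep1 against Ctrl it was -0.50 (adjusted p = 0.251). In the limma fit of FPKM without a filter, whose pseudocount of 1 shrinks changes of low genes, Vwf was not called (adjusted p = 0.315 in Ep2 against Ctrl and 0.12 against Ep1), in fits that called 21.7% and 16.7% of all genes.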

How the data were processed

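RNA of 9 libraries was sequenced on an Illumina platform. The authors deposited FPKM values for 54532 genes, with the joint table equal to the 9 single-library tables. The submitters' processing notes list Bowtie 0.12.2 and mm8, the methods name GRCm39, and 99.9% of 37620 listed gene positions overlapped those on GRCm38, the build used here. FPKM multiplied by gene length and by one scale per library, found from the values, gave whole fragments for 100% of values within 0.05. Genes with at least 1 FPKM in at least 3 libraries (11727) were fitted on log2(FPKM + 1) with limma 3.58.1 (R 4.3.3; trend, robust; all libraries), with Benjamini-Hochberg adjustment per comparison. A voom fit used 14112 genes with at least 10 fragments in at least 3 libraries. The members and the gene lists were chosen with earlier results of these data known. Of each list the 3 highest genes and the 2 with the smallest adjusted p in each direction in Ep2 were named, with others chosen after their values were seen. Alternatives were median centring, no or a stricter filter (5 FPKM), a pseudocount of 0.1, voom, a fit of only the groups compared, a replicate block, omission of each library, and, added after seeing the data, a length and GC correction and the Vwf omissions. Some genes that the naming rule picks are not reported here.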

Additional observations from a re-analysis of the deposited data

How the results depend on the processing

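Flt1 was called in Ep2 against Ctrl and against Ep1 under every alternative run (log2 fold change 0.54 to 0.68 and 0.48 to 0.62). Eng was called under none of those that tested it, and it was too low to be tested with the stricter filter of 5 FPKM. Voom on fragments called 2 members in each of these comparisons, against 1 in the FPKM fit. The Ep1 value of Flt1 turned to -0.0043 without Ep1 replicate 1 (at most 0.098 with 1 library left out). The Ep2 value of Eng turned to 0.052 with the length and GC correction. Between the doses Eng turned to -0.026 and -0.033 when Ep1 replicate 2 or 3 was omitted and to -0.046 when Ep2 replicate 1 was. Its value between the doses reached 0.062 with 1 library left out and 0.089 with the length and GC correction. The cause of these turns was not tested. The number of tested genes called in Ep1 against Ctrl was 1324, and it was 396 without a filter, 2217 with only the groups compared, 869 with the length and GC correction, and 192 to 1038 when 1 library was left out. Of the 64 tested genes of the related lists, 9 were called in that comparison, 3 without a filter, and 2 to 9 with 1 library left out, and in Ep2 against Ep1 the counts were 25, 16, and 14 to 27. The main fit called 11.3% of all tested genes in Ep1 against Ctrl and 44% in Ep2 against Ep1. Among called values of single named genes, 484 alternatives kept the call and 73 lost it, and none changed direction. The length and GC correction moved Ep2 log2 values by over 1.5 times against Ctrl in Vegfb (-0.10), Id3 (-0.074), Smad6 (-0.26), Id1 (-0.28), and Mapk3 (-0.20), and voom, without a pseudocount of 1, gave 0.74 for Calcrl (0.66 with a pseudocount of 0.1).

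No sign of pairing by replicate number was seen, although with 3 libraries per group this check cannot exclude it. Correlations of same-numbered libraries, as deviations from their group means, ran from -0.056 to 0.074, and 2 of 9 libraries correlated best with their own number. With the replicate block, 1051 genes were called in Ep1 against Ctrl, 6110 in Ep2 against Ctrl, and 4983 in Ep2 against Ep1, and the members called stayed at 0, 1, and 1. At this depth Kdr, Tek, Tie1, and Pecam1 had 0 to 25 fragments per library, so that small changes in them were not detectable.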

Other observations

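Downstream of the VEGF receptors, all 24 listed signalling genes passed the filter. In Ep1 against Ctrl 2 rose, 1 fell, and 21 were not called, where 11.3% of all tested genes were called. In Ep2 against Ctrl 10 rose, 4 fell, and 10 were not called, where 53.2% of all tested genes were called, 23.9% higher and 29.3% lower. The median log2 fold change in Ep2 was 0.15 beside -0.029 over all tested genes. Prkca (protein kinase C alpha) had 7.10, 6.32, and 6.77 FPKM in Ctrl, 8.42, 8.34, and 9.29 FPKM in Ep1, and 9.39, 11.1, and 11.9 FPKM in Ep2, without overlap between any pair of groups (as in 41.3%, 59.7%, and 54.4% of tested genes for Ep1 and Ctrl, Ep2 and Ctrl, and Ep2 and Ep1), and rose by 0.61 in Ep2 (SE 0.0825, adjusted p = 0.000256). Mapk3 (ERK1) fell by 0.39 in Ep2 (adjusted p = 5.15e-05), from 83.3 to 90.7 FPKM to 65.4 to 66.2 FPKM. Sphk2, a sphingosine kinase, fell by 0.58 in Ep2 (adjusted p = 0.000277), from 6.00 to 7.52 FPKM to 3.94 to 4.50 FPKM. Hspb1, a small heat shock protein at 70.7 to 97.1 FPKM, was not called.

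Most listed genes that make or release the granules storing von Willebrand factor passed the filter, although Vwf did not. Below it were 2 of the 8, of which 1 had no fragment in any library. Of 8 listed genes 6 passed the filter and none was called in Ep1 or Ep2 against Ctrl by limma (1 and 0 at an unadjusted p below 0.05), and voom called 0 and 1 of 7, the latter Rab27a (a GTPase of granule transport, log2 fold change -1.61, adjusted p = 0.00524). The shares called over all genes were 11.3% and 53.2% by limma and 13.8% and 49.9% by voom. Cd63, a tetraspanin of these granules and of late endosomes in most cells, lay between 115 and 126 FPKM and Hps6 (a subunit of a complex for lysosome-related organelles) between 10.2 and 14.9 FPKM.

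Over the 9 libraries the tested genes whose log2(FPKM + 1) followed Flt1 most closely were P4hb (protein disulfide isomerase, Pearson r = 0.996) and Sel1l (an adaptor of endoplasmic reticulum degradation, r = 0.995). For Eng they were Ciz1 (r = 0.957) and Lrp5 (r = 0.924). These values describe the same 9 libraries in 3 groups and were picked as the highest of all tested genes.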
